A study of Rattus norvegicus with 4 samples.

Results

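The liver of a rat that inhaled desflurane for 6 hours was compared with the liver of its own control, a rat killed after less than 1 minute of desflurane. These were 2 of the 4 livers sequenced in the study, and 9855 of the 16992 annotated genes had a TPM value above 2 in at least 1 of the 2 livers and were compared. All genes that passed this limit entered the comparison whatever their change, whereas the genes named below were in part chosen by it. The study asked how the liver transcriptome differs after the inhalational anesthetics sevoflurane and desflurane. Male wild type Wistar rats were purchased at 6 weeks of age, housed for at least 1 week, and kept without food and water for 2 hours before the experiment. Desflurane was given at 6% in 50% oxygen. The remaining 2 livers, used here as a yardstick, came from a rat under 4.5% sevoflurane for 6 hours and from its control of less than 1 minute. RNA was taken from the left lateral lobe, with 1 rat per condition, and all rats were killed at about 3 PM. Each condition was therefore a single animal. Anesthesia began earlier in the day in the 6 h rat, which also stayed without food for about 6 hours longer than its control, and the agent, the longer fast, and the individual rat cannot be told apart.

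The liver breaks down drugs with cytochrome P450 enzymes, whose genes are switched on by the nuclear receptors CAR and PXR. Between meals it also releases glucose, burns fatty acids, and stops making fat, a switch that is driven by low insulin and high glucagon through genes such as *G6pc*, *Pck1*, and *Cpt1a*. It secretes the iron hormone hepcidin and many proteins of innate immunity, and receives cytokine and growth hormone signals through the JAK-STAT pathway.

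All libraries were made from total RNA with rRNA depletion. The median ratio of coverage to FPKM corresponded to between 4.47 and 5.40 gigabases of aligned reads per liver, with 5.40 and 5.13 for the control and the 6 h liver of the desflurane pair. Without scaling, the median gene was 0.11 higher on the log2 scale after desflurane than in its control. TPM values were therefore divided by median-of-ratios factors (0.963 for the control and 1.05 for the 6 h liver), which left a median difference of -0.0021. All TPM values below are scaled in this way. A log2 change is log2((TPM + 1)/(TPM + 1)) of the 6 h liver against its own control, which understates the change of genes with low values. The hepatocyte markers were at the same level in the pair, with a summed TPM of 139855 in the control and 141415 after 6 hours, in which albumin (*Alb*) alone was 80496 and 88356. No p-values were calculated, because 1 liver per condition gives no measure of the spread between animals.

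After 6 hours of desflurane, 145 genes (1.47% of the genes compared) were more than 2-fold higher and 124 genes (1.26%) were more than 2-fold lower than in the control. To some degree, 4898 of the 9855 genes compared were higher and 4957 lower. Most differences were small. A fold between 2 and 3 was found for 98 of the higher and 91 of the lower genes, whereas 24 and 14 genes were past 4-fold. Without scaling, the numbers were 198 and 101, so that the share of higher genes among those past the limit was 66.2% instead of 53.9%. The genes closest to the limit were *Tas1r1* with a log2 change of 1.01 just inside, *Hprt1* at 0.996 just outside, and on the lower side *Kcnj8* at -1.004 inside and *Dnajc24* at -0.999 outside.

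The 2 control livers served as the yardstick. Of 9756 genes above 2 TPM in either control, 158 were past the 2-fold limit, with 82 genes higher (0.841%) and 76 lower (0.779%) in the desflurane control. The controls came from different rats given different agents for less than 1 minute, and are not true replicates. Among genes with a mean of 5 to 20 TPM, the 95th percentile of the absolute log2 difference was 0.70 in the desflurane pair and 0.54 between the controls. It was 0.81 and 0.50 for genes of 20 to 100 TPM, and 0.999 and 0.70 above 100 TPM. For genes of 2 to 5 TPM, the corresponding values of 0.74 and 0.70 were nearly the same. A difference of the desflurane pair thus exceeded that of the controls mainly for genes of moderate and high expression. More than 2-fold above both controls were 72 genes (0.731%), and 51 genes (0.518%) were more than 2-fold below both. Of the 145 higher genes, 122 were lower in the desflurane control than in the sevoflurane control, and of the 124 lower genes 101 were higher in it. The desflurane control is part of both differences, so a gene that is out of the ordinary in this 1 liver enters both counts.

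**Figure D1:**
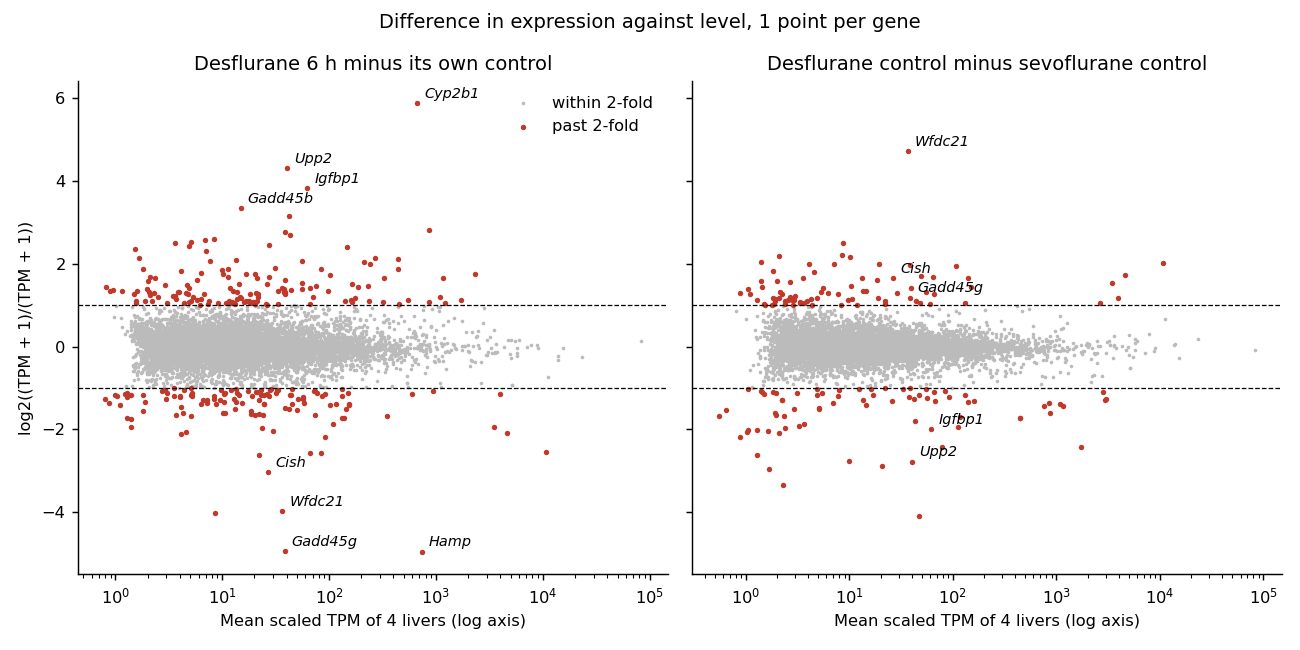
Each point is a gene, with its mean scaled TPM over the 4 livers on a log axis (horizontal) and its log2 difference (vertical), for the desflurane pair (left) and for the 2 controls (right), and dashed lines mark 2-fold. *Cyp2b1*, *Upp2*, *Igfbp1*, and *Gadd45b* lie highest and *Hamp* and *Gadd45g* lowest on the left, whereas *Upp2*, *Igfbp1*, *Cish*, *Gadd45g*, and *Wfdc21* are also past 2-fold between the controls.

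The largest increase of a single gene was in a gene of drug metabolism. *Cyp2b1* (chr7:99158102-99181774 in rn6), the P450 enzyme best known for its induction by phenobarbital through CAR, had a TPM value of 16.7 in the desflurane control and 18.2 in the sevoflurane control, compared with 1037 after 6 hours of desflurane and 1611 after 6 hours of sevoflurane. The log2 change with desflurane was 5.88, a 58.7-fold difference, and the controls differed by -0.12. *Cyp2b2* (chr1:83103925-83119578) had TPM values of 171 and 157 in these controls, 1208 after desflurane, and 1868 after sevoflurane, with a log2 change of 2.81. Both 6 h livers were far above both controls in both genes, although reads of these near-identical paralogs could have been divided between them. *Por*, which passes electrons to the P450 enzymes, was at 124 and 147 TPM in the controls and 395 after desflurane (log2 change 1.66). *Alas1*, the rate-limiting enzyme of heme synthesis, was at 104, 100.4, and 289 TPM in the same order (1.47), and the other 7 genes of heme synthesis stayed within 2-fold.

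Of 27 CAR and PXR target genes, 9 were more than 2-fold higher and 0 lower, and 7 were past the limit against both controls. The median log2 change of the list was 0.35, against -0.0021 for all genes compared, and the median difference between the controls was 0.02. The others past the limit were the carboxylesterase *Ces2c* (1.26), the drug efflux pump *Abcb1a* (1.29), the stress gene *Gadd45b* (3.34), and the P450 enzymes *Cyp3a9* (1.66) and *Cyp3a18* (1.89). *Cyp3a18* was at 147 TPM in the desflurane control, 486 in the sevoflurane control, and 546 after desflurane, so that it was within 2-fold of the sevoflurane control. *Cyp3a23/3a1* (276 and 543 TPM in the pair, 461 in the sevoflurane control) and *Cyp3a2* (1627, 2065, and 2658) stayed within 2-fold, and their spans overlap each other. At the low end of the list were *Ephx1*, *Cyp2c7*, and *Gsta2*, enzymes of epoxide hydrolysis, P450 oxidation, and glutathione conjugation, with log2 changes of -0.89, -0.88, and -0.87. The receptor gene for PXR, *Nr1i2*, was at 56.3 and 69.2 TPM in the controls and 145 after desflurane (1.35), the only gene past the limit among 30 nuclear receptors. That of CAR, *Nr1i3*, was at 38.7, 54.1, and 40.0 TPM.

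Among 24 other P450 enzymes of drug metabolism, *Cyp2c24* alone passed the limit (0.517 to 4.58 TPM), but 19 were above the control to some degree, with a median log2 change of 0.47. Against the sevoflurane control, this median was 0.05. *Cyp2c11*, the major P450 of the male rat liver, was at 564 TPM in the desflurane control, 1090 after 6 hours, and 1489 in the sevoflurane control. *Cyp1a2* was at 612, 1155, and 1018 TPM in this order and *Cyp2e1* at 2112, 3137, and 3436, and the own control was the lowest of these 3 livers for each of the 3 genes. Of 37 flavin monooxygenases and conjugating enzymes, 5 were more than 2-fold higher. *Fmo2*, a flavin monooxygenase, was at 0.731 and 1.11 TPM in the controls and 3.38 after desflurane (1.34). The sulfotransferases *Sult1a1* (1.07) and *Sult2a2* (1.101) were within 2-fold of the sevoflurane control. *Inmt*, a methyltransferase, was at 2.02 TPM in its own control, 9.83 after 6 hours, and 19.6 in the sevoflurane control, so its direction depended on the control. The median of this list was -0.03, and *Sult2a6* was lowest (-0.97). Among 20 drug transporters, *Abcb1a* and the carnitine transporter *Slc22a5* passed the limit.

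**Figure D2:**
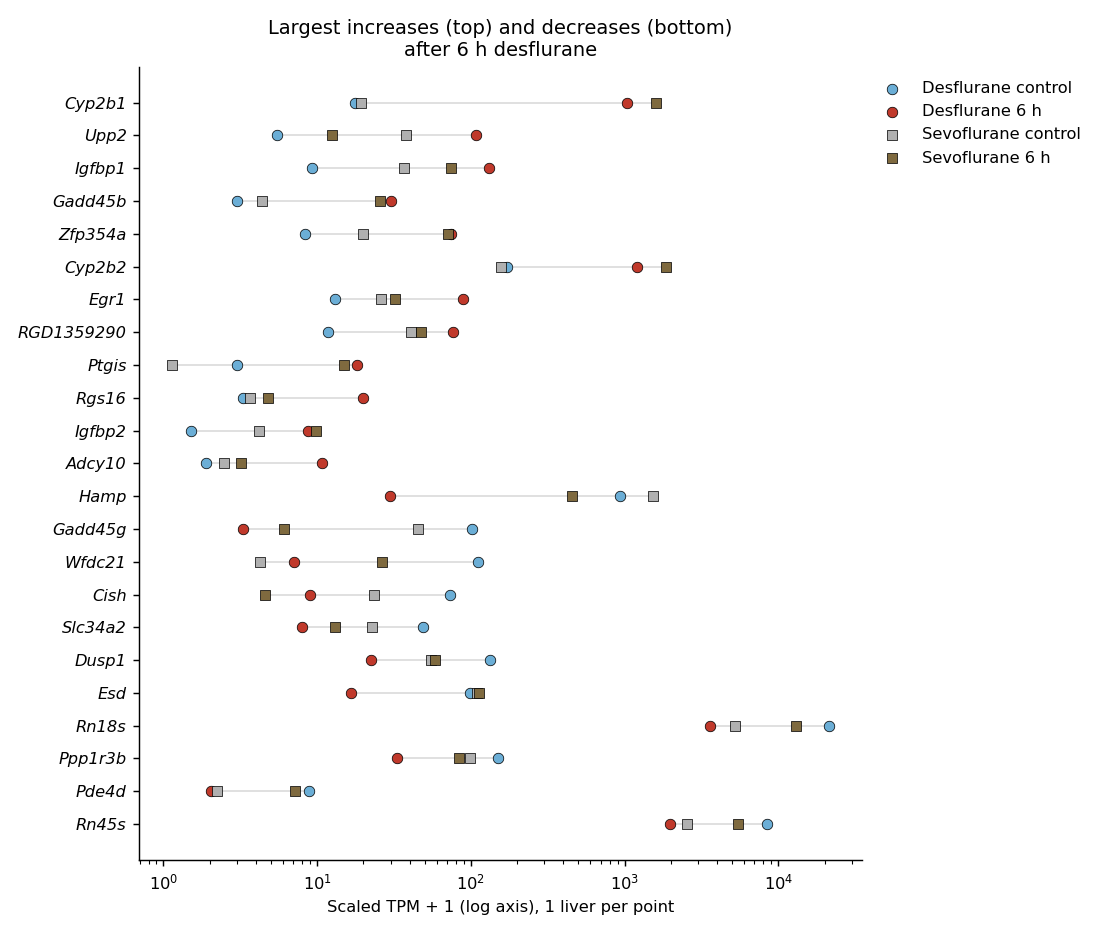
Scaled TPM plus 1 on a log axis (horizontal) in each of the 4 livers for the 12 largest increases and 11 of the 12 largest decreases with desflurane, with 1 point per liver and a grey line over their range. For *Cyp2b1* and *Cyp2b2* the 2 controls lie together and both 6 h livers apart, whereas for *Upp2*, *Wfdc21*, and *Rn18s* the controls lie far from each other.

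The other large increases were in genes of several functions. *Upp2* (chr3:44806106-44846464), a uridine phosphorylase of the liver, was at 4.46 TPM in its own control, 36.6 in the sevoflurane control, and 107 after desflurane, a log2 change of 4.31 against its own and 1.53 against the other control. *Zfp354a*, a zinc finger repressor, was at 7.33, 18.9, and 72.7 TPM in this order, and *Gadd45b* at 2.01, 3.36, and 29.4. *Egr1*, an immediate early transcription factor, was at 12, 25.1, and 87.5 TPM. The 6 h liver was the highest of these 3 livers for each of these genes. *Rgs16*, which shortens G protein signals, was at 2.31 and 2.66 TPM in the controls and 18.8 after desflurane (2.58). *Adcy10*, the soluble adenylyl cyclase, was at 0.887, 1.47, and 9.72 TPM (2.51). With 6 h sevoflurane these 2 genes were at 3.79 and 2.21 TPM, whereas *Zfp354a* was at 69.6, *Gadd45b* at 24.5, and *Egr1* at 31.0. *Ptgis*, the prostacyclin synthase, was at 2.01, 0.137, and 17.3 TPM, and at 14.0 with sevoflurane. The uncharacterized *RGD1359290* (10.8, 39.7, and 75.1 TPM) was within 2-fold of the sevoflurane control.

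Some genes that low insulin and glucagon raise were higher. *Igfbp1* (chr14:87448716-87453783), a liver-secreted binding protein of the insulin-like growth factors that insulin represses, was at 8.25 TPM in its own control, 35.9 in the sevoflurane control, and 129.7 after desflurane, with log2 changes of 3.82 and 1.83. *G6pc* (chr10:89286009-89296213), the catalytic subunit of glucose-6-phosphatase, which releases free glucose, was at 118, 210.3, and 527 TPM (2.14 and 1.32). *Ppargc1a*, a coactivator that glucagon raises through cAMP, was at 3.01, 4.33, and 12.8 TPM (1.78). The 3 genes were above both controls, with the desflurane control lowest. With 6 h sevoflurane, *Igfbp1* was at 73.8 TPM, a log2 change of 1.02 against the sevoflurane control. *G6pc* was at 221 TPM and *Ppargc1a* at 5.02 in that liver.

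The promoters of these 3 genes, from 250 bases before to 50 bases after the annotated start in RefSeq (build GRCr8), are shown because the genes moved together. Capitals mark the core of the insulin response element, CAAAACA on either strand, in *Igfbp1* (chr14:86261027-86261326, plus strand) and *G6pc* (chr10:86807409-86807708, plus strand, listed as *G6pc1*), and the cAMP response element TGACGTCA in *Ppargc1a* (chr14:63634058-63634357, plus strand).
*Igfbp1*: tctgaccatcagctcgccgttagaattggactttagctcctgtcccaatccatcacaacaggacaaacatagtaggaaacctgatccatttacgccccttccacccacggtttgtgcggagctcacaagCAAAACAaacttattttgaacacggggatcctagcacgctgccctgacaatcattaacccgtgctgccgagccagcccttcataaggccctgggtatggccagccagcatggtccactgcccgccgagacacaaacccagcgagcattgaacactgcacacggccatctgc
*G6pc*: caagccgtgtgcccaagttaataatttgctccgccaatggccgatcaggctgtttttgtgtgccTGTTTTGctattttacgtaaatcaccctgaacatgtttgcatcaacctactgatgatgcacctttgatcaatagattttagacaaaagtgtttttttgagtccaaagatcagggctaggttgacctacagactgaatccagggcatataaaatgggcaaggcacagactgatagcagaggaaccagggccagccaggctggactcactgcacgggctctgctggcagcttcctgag
*Ppargc1a*: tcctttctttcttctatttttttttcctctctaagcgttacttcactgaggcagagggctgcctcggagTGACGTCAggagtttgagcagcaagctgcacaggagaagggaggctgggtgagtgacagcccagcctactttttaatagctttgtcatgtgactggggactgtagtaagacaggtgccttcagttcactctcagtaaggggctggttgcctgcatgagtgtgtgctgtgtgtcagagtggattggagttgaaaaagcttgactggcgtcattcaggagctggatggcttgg
The matches start at -121, -186, and -181 relative to the annotated start. CAAAACA was found in 6.28% of all 33469 promoters, in 6.56% of those of the 122 higher genes with a promoter entry, and in 7.37% of those of 95 lower genes. The shares for TGACGTCA were 1.83%, 4.10%, and 5.26%, the last 2 being 5 promoters each. A match of letters is a description and not a bound site.

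Of 22 gluconeogenesis genes, 4 were more than 2-fold higher and 0 lower, and 18 were above the control to some degree. The median log2 change was 0.32 against the own control and 0.17 against the sevoflurane control. *Got1*, an aspartate aminotransferase, was at 41.9 and 39.7 TPM in the controls and 140.1 after desflurane (1.72). *Pck1*, which catalyzes the committed step of the pathway, was at 429 TPM in its own control and 904 after 6 hours (1.07), but at 1104 in the sevoflurane control, above the 6 h liver. *Slc37a4*, the glucose-6-phosphate transporter that works with *G6pc*, was just under the limit (0.99), and the abundant *Fbp1* (0.22) was near its control. In the insulin pathway, *Irs2*, an insulin receptor substrate that fasting raises, was at 8.66, 10.3, and 19.0 TPM (1.05), *Irs3* was lower (-1.18), and *Tsc22d1*, a transcriptional regulator, was at 158, 198, and 42.6 TPM (-1.87), below both controls. The other 13 of its 16 genes, including the receptor *Insr* (0.47), stayed within 2-fold.

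Fatty acid oxidation was higher in part. Of 36 genes of fatty acid oxidation and ketogenesis, 7 were more than 2-fold higher, 2 lower, and 29 above the control to some degree. Of all 9855 genes compared, 4898 were above it. The median log2 change was 0.46 against the own control and 0.35 against the sevoflurane control. *Cpt1a* (chr1:218569510-218629679), the gatekeeper of fatty acid entry into mitochondria, was at 103 and 127 TPM in the controls and 414 after desflurane (1.99). *Vnn1* (1.74), the carnitine transporter *Slc22a5* (1.68), the phosphatidate phosphatase *Lpin1* (1.36), and the lipoprotein lipase inhibitor *Angptl4* (1.27) were also past the limit against both controls. *Acaa2* (1.04) and *Eci1* (1.09), mitochondrial enzymes of beta-oxidation, passed it against their own control only. *Slc25a47*, a mitochondrial carrier of the liver that stands outside the list and was chosen after its values were seen, was at 191, 294, and 827 TPM. *Pdk4*, which spares glucose, did not differ in the pair (74.2 and 76.4 TPM) but was at 41.7 in the sevoflurane control. The omega-hydroxylases *Cyp4a2* (234 to 70.0 TPM) and *Cyp4a3* (226 to 103) were lower, but the sevoflurane control was at 73.0 and 82.6 TPM and their spans overlap. Their paralog *Cyp4a1* was at 122 and 237 TPM in the pair.

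Genes that feeding and insulin switch on were lower in part. *Ppp1r3b*, which targets protein phosphatase to glycogen, was at 149 TPM in its own control, 97.6 in the sevoflurane control, and 32.2 after desflurane (-2.18). *Srebf1*, the master regulator of fat synthesis, was at 188, 139, and 70.7 (-1.39). The desaturases *Scd* (819, 579.7, and 370.4) and *Fads2* (1326, 1312, and 632) had log2 changes of -1.14 and -1.07. The 6 h liver was the lowest of these 3 livers for each of these genes. *Pnpla3* (-2.05), *Angptl8* (-1.64), and *Mid1ip1* (-1.17), genes of lipid storage, lipoprotein lipase control, and fat synthesis, were also past the limit. Of the list, 8 of 27 members were lower, and 0 were higher. The median of the list was -0.46 against the own control but -0.13 against the sevoflurane control, and 3 members, *Ppp1r3b* and *Fads2* among them, were past the limit against both. The fatty acid synthase *Fasn* was at 66.0 and 70.9 TPM and the acetyl-CoA carboxylase *Acaca* at 35.3 and 52.5 in the pair, both within 2-fold. The spans of *Fads2*, *Srebf1*, and *Angptl8* overlap other genes, and use of strand in the counting is not stated.

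**Figure D3:**
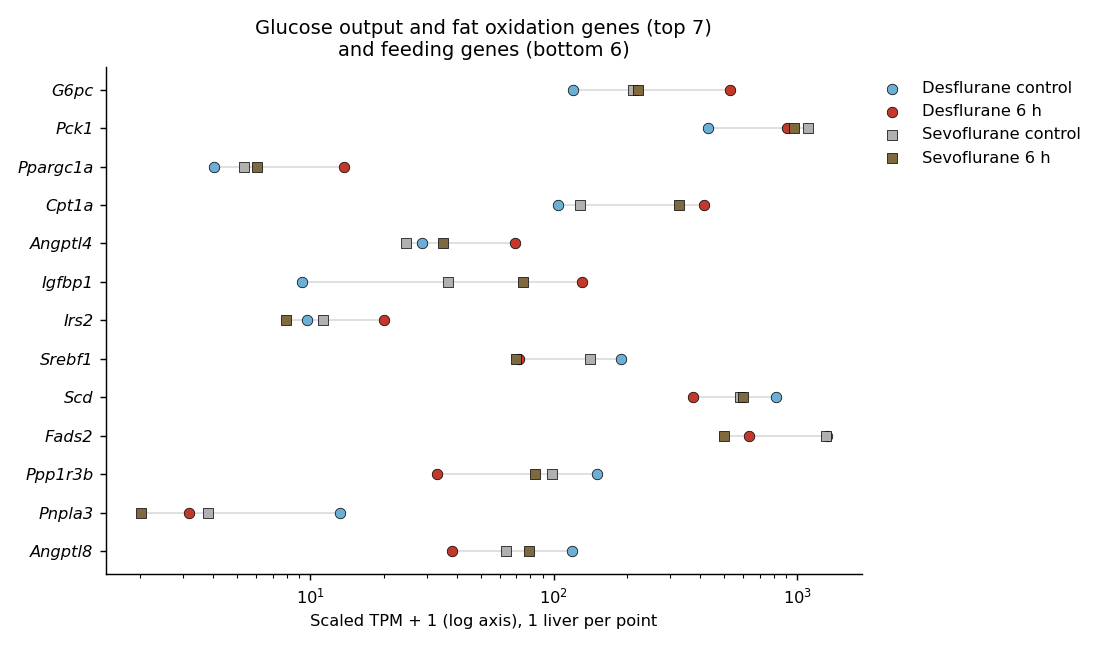
Scaled TPM plus 1 on a log axis in each of the 4 livers for genes of glucose output, fat oxidation, and insulin response (top 7) and genes that feeding raises (bottom 6), with 1 point per liver. The liver after 6 hours of desflurane lies highest of the 4 in the top 7 except *Pck1*, and the desflurane control lies lowest in them except in *Angptl4* and *Irs2*, and highest in all of the bottom 6.

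Genes of amino acid breakdown and the urea cycle were higher in part. Of 41, 6 were more than 2-fold higher, 0 were lower, and 3 were past the limit against both controls. The median log2 change was 0.21 against the own control and 0.08 against the sevoflurane control. *Bhmt*, which remethylates homocysteine, was at 1141 and 1266 TPM in the controls and 3822 after desflurane (1.74), above both. The urea cycle enzymes *Ass1* (1.06) and *Asl* (1.17) and the tryptophan-degrading *Tdo2* (1.12) passed the limit against their own control, and *Cps1*, the first enzyme of the urea cycle, had a log2 change of 0.53. *Cbs* was lowest of the list (-0.73). The sterol transporters *Abcg5* (20.6, 53.1, and in the sevoflurane control 49.0 TPM) and *Abcg8* (8.14, 20.1, and 23.2) were more than 2-fold higher than in their own control only, the only 2 of 18 genes of bile acid synthesis and sterol transport. Cholesterol synthesis was nearly the same in the pair (median -0.03, 25 genes), with *Insig2*, a brake on the pathway that fasting raises, past the limit (1.104).

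Among the lower genes, *Hamp* (chr1:89368021-89369960), which encodes hepcidin, the hormone that limits iron uptake and release, stood apart. Its TPM value was 927 in the desflurane control and 1521 in the sevoflurane control, compared with 28.9 after 6 hours of desflurane and 452 after 6 hours of sevoflurane. The log2 change was -4.96, a 31.1-fold difference, and the controls differed by -0.71. Both 6 h livers were below both controls, with the desflurane liver far lower. Of 24 genes of iron handling and hepcidin control, *Id2*, a target of BMP signals, was the only other gene past the limit (130.2, 136, and 48.2 TPM). *Id1*, a BMP target like *Hamp*, was at 4.23, 8.67, and 7.42 TPM, and the signal molecule *Bmp6* at 2.34, 3.41, and 3.34. The median of the list was -0.01, and transferrin (*Tf*), ferritin (*Fth1*), and the transferrin receptor *Tfr2* had log2 changes of -0.26, 0.09, and 0.09.

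A pair of feedback genes of the JAK-STAT pathway were lower as well. *Cish* (chr8:116054547-116059494), a suppressor that growth hormone induces through STAT5, was at 72.7 TPM in its own control, 22.4 in the sevoflurane control, 7.99 after desflurane, and 3.58 after sevoflurane, with a log2 change of -3.04 against the own and -1.38 against the other control. *Socs3*, its counterpart for interleukin-6 signals, was at 25.2, 15.5, and 9.29 TPM in the 2 controls and after desflurane (-1.35), and *Socs2* at 100.1, 39.7, and 58.2. *Cish* and *Socs3* were the only 2 genes past the limit among 22, whose median was -0.27 against the own control and -0.09 against the other. *Igf1* was at 1236, 953, and 961 TPM, its carrier *Igfals* had a log2 change of -0.97, and besides *Igfbp1* the binding protein *Igfbp2* was higher (0.503, 3.20, and 7.66 TPM). The promoters of *Cish* (chr8:116850719-116851018, plus strand) and *Hamp* (chr1:95300222-95300521, minus strand) from the same RefSeq table are shown because both genes are known STAT targets. Capitals mark TTCNNNGAA, the STAT element, which reads the same on both strands, with 4 matches in *Cish* and 1 in *Hamp* starting at -117.
*Cish*: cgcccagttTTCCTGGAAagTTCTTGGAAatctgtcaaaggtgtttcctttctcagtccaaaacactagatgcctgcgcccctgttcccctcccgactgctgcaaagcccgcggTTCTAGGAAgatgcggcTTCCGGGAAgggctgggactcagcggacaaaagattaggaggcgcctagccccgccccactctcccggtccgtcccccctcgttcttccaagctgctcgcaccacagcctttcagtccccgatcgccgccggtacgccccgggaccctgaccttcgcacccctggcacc
*Hamp*: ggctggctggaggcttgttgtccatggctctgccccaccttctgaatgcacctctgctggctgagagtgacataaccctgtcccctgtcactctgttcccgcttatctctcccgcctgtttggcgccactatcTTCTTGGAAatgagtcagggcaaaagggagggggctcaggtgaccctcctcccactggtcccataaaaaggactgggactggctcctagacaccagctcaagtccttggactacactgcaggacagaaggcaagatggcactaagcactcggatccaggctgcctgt
This element was found in 8.87% of all promoters, 4.10% of those of the higher genes, and 9.47% of those of the lower genes.

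Growth arrest genes moved apart. *Gadd45g* (chr17:13391474-13393219) was at 101 TPM in its own control, 44.2 in the sevoflurane control, 2.31 after desflurane, and 5.10 after sevoflurane (-4.95), whereas its paralog *Gadd45b* was among the largest increases. *Bmf*, a proapoptotic gene, was lower (42.4, 35.7, and 12.9 TPM). The remaining 20 of 23 growth arrest and p53 target genes stayed within 2-fold (median -0.01). Of 46 genes of the cell cycle and DNA replication, 37 were above 2 TPM in either liver of the pair. Of these, *Mcm6* (-1.20), *Ccnd2* (-1.28), and *Mybl1* (-1.14) were lower and 0 higher. The median of all 46 was -0.35 against the own control and -0.06 against the other. *Slc34a2*, a phosphate transporter, was at 48.1, 21.9, and 7.02 TPM (-2.61).

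For some of the largest decreases, the measurement itself was uncertain. *Esd*, esterase D, was at 97.6 and 109 TPM in the controls and 15.6 after desflurane (-2.57), but its average coverage was 33.9 in the control and 27.6 after 6 hours, a log2 difference of -0.26 after scaling. The same was true of *Pde4d*, a cAMP phosphodiesterase, with 7.84 and 1.05 TPM but 1.30 and 1.21 in coverage. *Mbl2*, a lectin of innate immunity, had 2 annotated copies in the control, whose TPM values were summed, and 1 merged copy in the 6 h liver. Its log2 change of -1.68 was -0.75 by coverage, but coverage was taken from the highest copy and not summed. The 2 measures of *Mbl2* are therefore not alike, and which of them is closer to its true change was not tested. Of the lower genes, 3 had unequal numbers of copies in the pair, *Mbl2* among them. Apart from such cases the 2 measures went together, since by coverage 144 of the 145 higher and 119 of the 124 lower genes were past 2-fold. *Wfdc21* was at 111 TPM in its own control but 3.24 in the sevoflurane control and 6.12 after desflurane, so its log2 change of -3.98 became 0.75 with the other control. The ribosomal RNA genes, which the depletion step is meant to remove, took 4.50% of the annotated TPM in the desflurane control, 1.26% in the sevoflurane control, and 0.979% after desflurane, and *Rn18s*, *Rn28s*, and *Rn45s* were lower with log2 changes of -2.56, -1.95, and -2.09.

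Interferon response genes were lower as a group, with few past the limit. Of 50 genes, 6 were more than 2-fold lower, 0 higher, and 40 were below the control to some degree. Of all 9855 genes compared, 4957 were below it. The median log2 change was -0.46 against the own control and -0.70 against the sevoflurane control, with -0.31 between the controls. *Mx2*, an antiviral GTPase, was at 30.4 and 29.7 TPM in the controls, 8.92 after desflurane, and 12.2 after sevoflurane (-1.66). *Irf1*, a transcription factor that interferon-gamma induces, was at 19.9, 24.3, 8.23, and 4.65 TPM in this order (-1.18). *Irgm*, an interferon-inducible GTPase, was at 41.9, 57.6, and 19.8 TPM and the immunoproteasome subunit *Psmb10* at 43.0, 41.9, and 20.3. For each of these 4 genes the 6 h desflurane liver was more than 2-fold below both controls. *Isg15*, a ubiquitin-like modifier, and *Rtp4* passed the limit against their own control only (-1.38 and -1.07). The abundant *Ifi27* was at 433, 455, and 369 TPM. In contrast, the 11 MHC class II genes, 8 of them above 2 TPM in the pair, had a median of 0.11 against the own control. *Cd74* was at 221 and 239.6 TPM in the pair. Against the sevoflurane control, in which *Cd74* was at 372, the median was -0.52. Of 52 chemokine and interleukin genes, 31 were above 2 TPM in either liver of the pair, and of these the receptor *Il6r* alone passed the limit (1.04). The chemokine *Ccl6* was at 252 and 251 TPM in the pair and the alarmin *Il33* at 51.7 and 48.0, compared with 395 and 80.1 in the sevoflurane control and 157 and 28.1 after 6 hours of sevoflurane. Acute phase proteins were near their control (median 0.03, 23 genes) apart from *Il6r* and *Lcn2* (19.2, 5.63, and in the sevoflurane control 3.52 TPM).

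Of the 12 markers of immune cells above 2 TPM in either liver of the pair, 0 were past the limit, and the direction of the lists of Kupffer and B cells depended on the control. The 9 Kupffer cell and macrophage markers had a summed TPM of 569 in the control and 638 after desflurane, with 0 past the limit and 6 of 9 above the control, and 719 in the sevoflurane control. Markers of T and NK cells summed to 31.4 and 29.9 TPM in the pair, those of B cells to 2.87 and 2.61, and those of neutrophils to 4.11 and 1.16, near the detection limit, with *Cd3d* and *Cd3g* listed at 0 in the control and *Elane* at 0 in both. The median log2 differences of these 4 lists were 0.15, -0.03, 0.03, and -0.03 against the own control, but -0.12, -0.26, -0.55, and -0.31 against the sevoflurane control, where each was below 0. The part of immune cells in the interferon values was not tested. In RNA of whole tissue, fewer cells of a type and less RNA per cell cannot be told apart. Stellate cell, endothelial, and cholangiocyte markers had medians of -0.06, 0.03, and -0.12, and 0 of their 15 members in the files passed the limit. Of the 3 erythroid markers *Hbb* alone passed the limit, with *Hbb* at 25.8 and 32.0 TPM in the controls and 11.0 after desflurane (-1.16), *Hba1* at 27.6, 33.8, and 13.6, and *Alas2* at 6.16, 13.9, and 5.74. Globin RNA was thus lower in the 6 h liver than in both controls, and the part of blood left in the tissue in the interferon values was not tested. Pancreatic acinar genes (*Prss1*, *Cpa1*, *Ctrb1*, and *Pnlip*) were listed at 0 in the desflurane pair, but at 6.73, 2.18, 9.14, and 3.53 TPM in the sevoflurane control.

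Clock, immediate early, and glucocorticoid responsive genes moved in both directions. Among 22 clock genes, *Per1*, which cAMP and glucocorticoids also induce, was at 4.63, 9.12, and 23.2 TPM (2.102), above both controls. *Per3* (1.02) and *Usp2* (1.329) passed the limit against their own control only, with 0.40 and 0.04 against the sevoflurane control. *Per2* (-0.87) and *Nfil3* (-0.91) were at the low end. The core clock gene *Arntl* was at 5.87, 1.97, and 3.23 TPM, and *Dbp*, a clock output, at 105, 189.9, and 156. Beside *Egr1*, the immediate early genes *Zfp36* (1.21) and *Plk3* (1.48) were above both controls. *Dusp1*, a phosphatase of MAP kinases, was at 132, 53.9, and 21.3 TPM (-2.58), below both. *Myc* (-1.03) and *Plk2* (-1.26) passed the limit against their own control only, with -0.43 and -0.49 against the sevoflurane control. The median of all 32 immediate early genes was 0.00, and 22 of them were above 2 TPM in either liver of the pair. Among 19 glucocorticoid responsive genes, *Per1*, *Pck1*, *Zbtb16* (4.69, 3.67, and 18.3 TPM), and the metallothionein *Mt2A* (473, 1273, and 1505) were higher, and *Dusp1*, *Lcn2*, and the cochaperone *Fkbp4* (-1.53) lower. *Fkbp5* (0.69) and *Tsc22d3* (0.31), standard targets of the glucocorticoid receptor, and *Tat* (0.06) stayed within 2-fold, and the median of the list was 0.23 against the own control and -0.03 against the other.

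No stress list was higher as a group. Of 25 heat shock genes, 4 were more than 2-fold lower and 0 higher, with a median of -0.34 against the own and -0.26 against the other control. *Hsph1* was at 28.4, 21.6, and 10.2 TPM, and *Dnajc12* at 26.9, 39.2, and 10.4, both more than 2-fold below both controls. *Hsp90aa1* (-1.13) and *Fkbp4* were past the limit against their own control, and the abundant *Hspa8* was at 265, 242, and 149 TPM. The cold-inducible RNA-binding genes *Rbm3* (21.3, 16.7, and 37.7 TPM) and *Cirbp* (15.1, 15.2, and 26.6) were at the high end of this list, within 2-fold of their control. The study states that the body temperature of the anesthetized rats was maintained, and it was not analysed here. Of 25 NRF2 target genes, *Gclm*, the modifier subunit of glutathione synthesis, was at 187, 258, and 70.3 TPM, *Osgin1* at 229, 159.6, and 68.8, and *Akr1b8* at 3.03, 0.356, and 0.209. These 3 were lower, 0 were higher, *Hmox1* and *Nqo1* had log2 changes of 0.03 and -0.11, and the median was -0.26. Of 29 ATF4 target genes, 0 passed the limit and 25 were below the control to some degree, with a median of -0.42 against the own control, -0.08 against the other, and 0.89 for sevoflurane against its own control. *Fgf21*, a hormone of this list, was at 42.9, 12.4, and 23.3 TPM and at 119.8 after sevoflurane, and *Asns* at 19.0, 12.7, 13.7, and 46.6. Among 27 genes of endoplasmic reticulum stress, *Edem1* was at 106, 88.8, and 289 TPM (1.44), the only gene past the limit. Hypoxia targets had 0 of 22 genes past the limit (median -0.04), but only 13 of them were above 2 TPM in either liver of the pair. Cytosolic ribosomal proteins had 0 of 75 genes past it (-0.05).

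**Figure D4:**
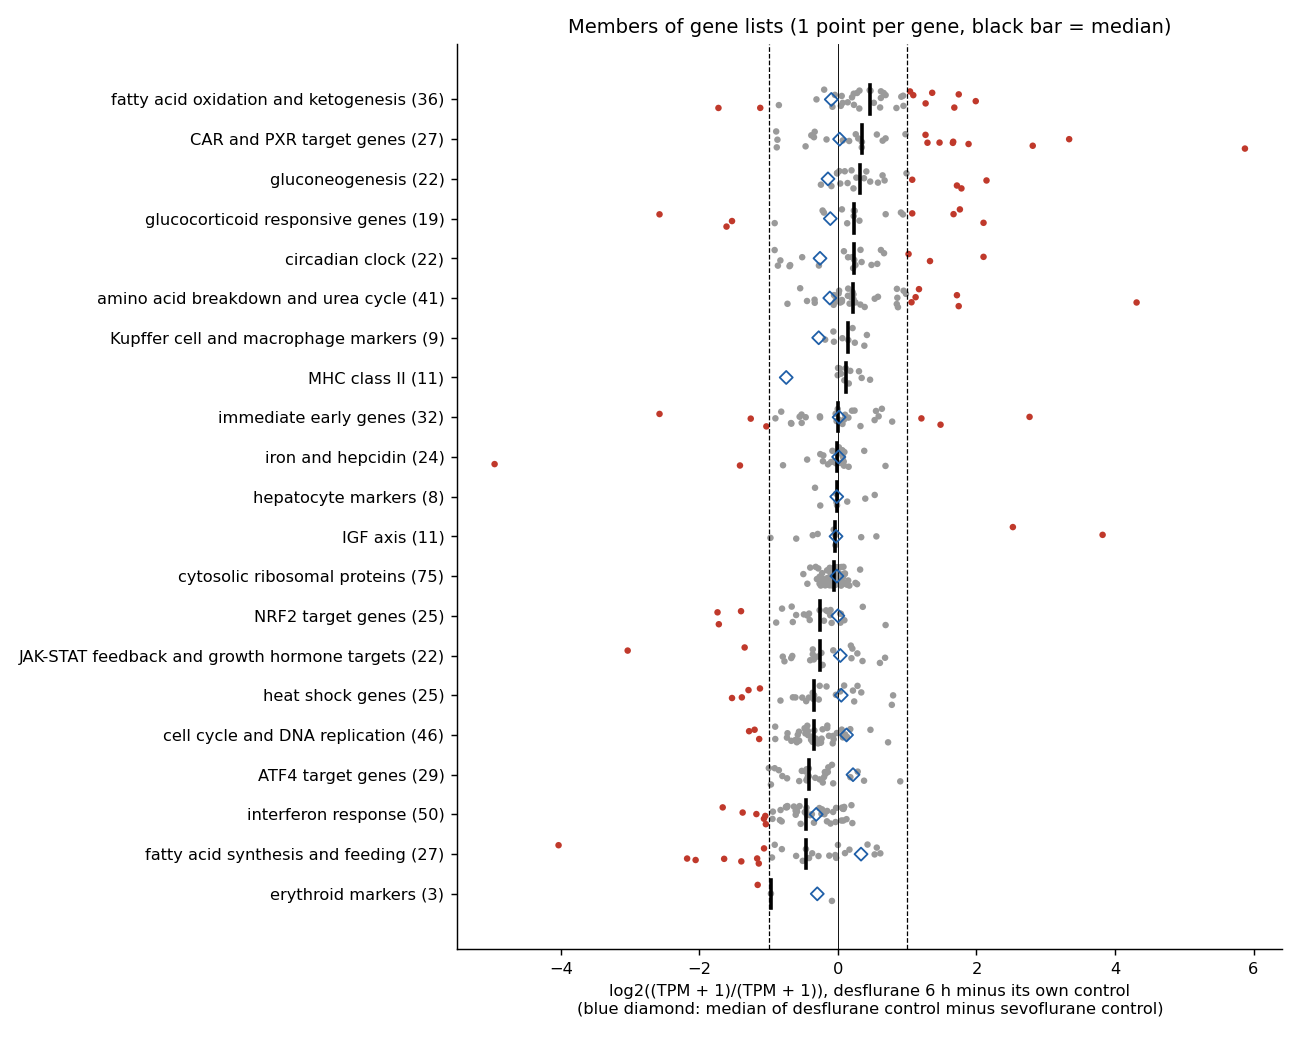
Log2 change of each member (points, red when past 2-fold) with the median (black bar) for gene lists, whose number of members in the files is in parentheses, and the median difference between the 2 controls (blue diamond). Of the 21 lists drawn, fatty acid oxidation, CAR and PXR targets, and gluconeogenesis lie highest by their median (0.46, 0.35, and 0.32), and fatty acid synthesis, interferon response, and the 3 erythroid markers lowest. The lists drawn are a selection. Among those not drawn, the medians were 0.47 for other P450 enzymes of drug metabolism, -0.58 for tubulins, and -1.95 for ribosomal RNA genes.

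With sevoflurane, treated and scaled in the same way, 1.28% of genes were more than 2-fold higher and 2.42% lower than in their control. The 39 genes higher with both agents were 26.9% of those higher with desflurane and 31.2% of those higher with sevoflurane. The 30 genes lower with both were 24.2% and 12.7%. In opposite directions past the limit were 19 genes, and in 18 of these the 2 controls already differed more than 2-fold. For 15 of them the 2 livers after 6 hours lay closer together than the 2 controls did, and *Upp2*, *Abcg8*, *Cdh17*, and *Otub2* were the exceptions. *Upp2* was at 107 TPM after desflurane and 11.5 after sevoflurane, and the desflurane liver was above both controls.

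**Figure D5:**
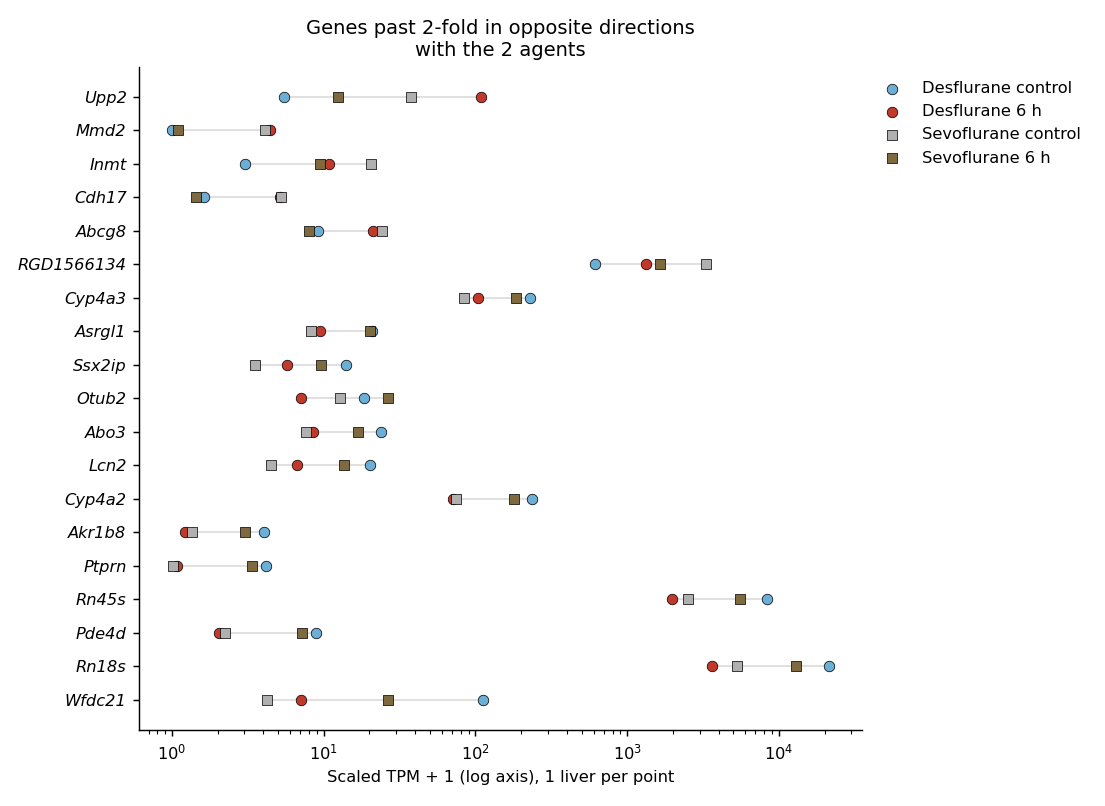
Scaled TPM plus 1 on a log axis in each of the 4 livers for the 19 genes past 2-fold in opposite directions with the 2 agents, ordered by the log2 change with desflurane, with 1 point per liver. In all genes but *Otub2* the 2 controls (blue circle and grey square) are more than 2-fold apart on this scale.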

How the data were processed

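Liver RNA of 4 rats, 1 per condition, was sequenced as paired-end reads, and groups were taken from the labels. The authors aligned the trimmed reads to rn6 with HISAT2, sorted them with SAMtools, and estimated expression per gene with StringTie. The labels and the study's methods name different rRNA depletion kits, both stranded, and whether strand was used in the counting is not given in the sources used here. The deposited TPM values are a signal per gene, normalized for length and library size by the authors. The deposited tables also hold FPKM values, normalized in the same 2 respects by the authors, and the average coverage, a signal that was not normalized. Read counts were not used here, and the precision of a value is known through its coverage only. The higher genes had a median coverage of 41.3 in the 6 h liver, and the lower genes 46.3 in the control.

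Rows assembled by StringTie without an annotated gene and rows of 200 bp or shorter were removed, and TPM was summed per symbol, which left 16992 genes. For coverage, the highest row per symbol was taken. Scaling was by median of ratios over 9136 genes above 2 TPM in all 4 livers. Genes above 2 TPM in either liver of a pair were compared by log2((TPM + 1)/(TPM + 1)) with a limit of 2-fold. List sizes, medians, and directions to some degree cover all members found, but only members above 2 TPM in either liver could pass the limit. No test was made. Named genes are the 12 largest increases and decreases, members of 43 gene lists (those past the limit, the 3 most abundant, and the extremes), the 7 genes the study measured by qPCR, and genes past the limit in opposite directions with the 2 agents, and others are marked as chosen after their values were seen or serve as background to a list. Results of some of these genes were left out. The motifs were chosen after values were seen. The members and lists were chosen with earlier results of these data known. Alternatives covered scaling, pseudocount, limits, FPKM, coverage, length filter, rRNA, overlapping genes, and the control used. Calculations used Python 3.11.15, numpy 2.4.6, pandas 2.3.3, and matplotlib 3.10.9. The code of the comparison was checked on simulated data, made from 1 liver with little noise and 4-fold changes in 200 genes. That check does not measure how reliable the genes past the limit are.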

Additional observations from a re-analysis of the deposited data

Results flagged for a closer look

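The 19 genes past 2-fold in opposite directions with the 2 agents are given by the log2 change with desflurane minus that with sevoflurane, each against its own control. The difference was not tested, since each effect rests on 1 liver and 1 control. Above 0, and so higher with desflurane, were *Upp2* (5.90), *Mmd2* (4.05), *Cdh17* (3.51), *Inmt* (2.97), *Abcg8* (2.82), and *RGD1566134* (2.13), a gene of the urinary protein cluster whose span overlaps its neighbours. Below 0 were *Wfdc21* (-6.62), *Rn18s* (-3.87), *Pde4d* (-3.79), *Ptprn* (-3.66), *Rn45s* (-3.20), *Lcn2* (-3.19), *Cyp4a2* (-3.00), *Akr1b8* (-2.89), *Ssx2ip* (-2.74), *Abo3* (-2.65), *Asrgl1* (-2.43), *Otub2* (-2.42), and *Cyp4a3* (-2.27). By average coverage *Pde4d* differed little in the desflurane pair (1.30 and 1.21), and the spans of *Rn18s* and *Rn45s* overlap each other. The 2 controls differed more than 2-fold in 18 of the 19, all but *Otub2*. *Otub2*, a deubiquitinating enzyme, was at 17.3 and 6.07 TPM in the desflurane pair and 11.9 and 25.5 in the sevoflurane pair, and its span overlaps another gene. *Mmd2* was listed at 0 in the desflurane control, at 3.39 TPM after desflurane, and at 3.10 in the sevoflurane control. *Ptprn*, a protein of secretory granules, was at 3.18, 0.0855, and 0.0143 TPM in this order.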

How the results depend on the processing

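No paired analysis was possible because each group has 1 liver and the labels give no shared replicate numbers, and no liver could be left out for the same reason. The numbers of genes past the limit stayed within 1.5 times of those reported under other scalings, TPM limits of 1 or 5 or none, a pseudocount of 0.5, removal of rRNA genes, no length filter, coverage in place of TPM, and removal of overlapping genes. With the sevoflurane control in place of the own control, 118 genes were higher and 133 lower, and with the mean of both controls 98 and 117. Without a pseudocount, 188 genes were lower and 90 were below both controls. At 1.5-fold, 477 genes were higher, 467 lower, 246 above both and 211 below both controls, and 532 differed between the controls. At 3-fold these numbers were 47, 33, 21, 7, and 51. With FPKM, 94 genes were higher and 95 differed between the controls. FPKM values are proportional to TPM within a liver but smaller, so the same pseudocount weighs more on them. Among genes with coverage above 10, 101 differed between the controls. Against the sevoflurane control, the direction was reversed for *Pck1* (-0.29), *Wfdc21* (0.75), *Inmt* (-0.92), *Cyp4a3* (0.32), *Abcg8* (-0.20), *Abo3* (0.16), *Asrgl1* (0.20), *Cdh17* (-0.025), *Lcn2* (0.55), *Ptprn* (0.10), *RGD1566134* (-1.31), and *Ssx2ip* (0.70). The medians of glucocorticoid responsive genes (-0.027), MHC class II (-0.52), and Kupffer cell markers (-0.12) were reversed as well. Further lists with a median near 0 against the own control also changed sign. Among them were B cell markers (0.03 to -0.55) and stellate cell markers (-0.06 to 0.11). With the mean of both controls, *Inmt* (-0.12), *RGD1566134* (-0.56), MHC class II (-0.24), and Kupffer cell markers (-0.081) were reversed. The cause was not tested in any of these. The other named genes past the limit kept their direction without scaling, with a pseudocount of 0.5, with FPKM, and with both other choices of control. Depth limits the genes with the lowest values, since the lowest average coverage was 3.58 among the higher genes in the 6 h liver and 1.30 among the lower genes in the control.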

Other observations

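Other gene groups, chosen after their values were seen, were described in the same way. Enzymes of peroxisomal fatty acid oxidation were higher in part, with 3 of 26 more than 2-fold higher, 0 lower, and a median log2 change of 0.23. *Hacl1*, which splits 2-hydroxy fatty acids in the breakdown of branched fatty acids, was at 63.6 and 103 TPM in the controls and 341 after desflurane, compared with 85.4 after sevoflurane. *Phyh*, which acts one step before it, was at 621, 957, and 1427 TPM in the 2 controls and after desflurane, and *Ech1* at 86.8, 114, and 249. *Cat*, peroxisomal catalase, was at 1841, 2013, and 1732 TPM.

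Tubulins, the subunits of microtubules, were lower in part. Of 18, 11 were above 2 TPM in either liver of the pair, 5 were more than 2-fold lower, and 0 higher. The median was -0.58 against the own control, -0.44 against the sevoflurane control, and 0.04 between the controls. *Tubb2a* was at 42.1, 26.1, and 9.94 TPM in the 2 controls and after desflurane, *Tuba4a* at 51.9, 62.1, and 17.6, and *Tuba1c* at 100.1, 96.2, and 43.4, each more than 2-fold below both controls. *Tubb4b* (-1.15) and *Tubb2b* (-1.13) passed the limit against their own control only. They were just under it against the sevoflurane control (-0.99 and -0.96). Reads of the more similar paralogs among these could have been divided between them. With 6 hours of sevoflurane against its own control, the median of the tubulins was 0.02.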
